A study of Mus musculus with 28 samples.

Results

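Wnt ligands, their Frizzled receptors and the secreted proteins that hold them in check were followed in satellite cells of the mouse, which are the resident stem cells of skeletal muscle. The members were taken by symbol from the deposited gene tables: symbols of Wnt, Fzd, Sfrp or Dkk followed by a digit, together with Frzb, Wif1, Lrp5, Lrp6, Axin2, Lef1, Tcf7, Rspo1, Rspo2 and Rspo3. The rule uses symbols alone, but it was chosen with earlier results of these data known. The rule found 47 of the 22552 genes listed: 19 Wnt ligands, 10 Frizzled receptors, 2 co-receptors, 10 secreted antagonists, 3 R-spondins and 3 genes of the nuclear response (Axin2, Lef1 and Tcf7).

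PolyA RNA-seq was done on 18 libraries of WT and SIRT1mKO satellite cells, all on a C57Bl/6 background, and the 10 ChIP and input samples of the series were not analysed here. SIRT1mKO animals, written KO below, were bred from Pax7 Cre knock-in mice (Pax7cre/+) and mice with a floxed exon 4 of Sirt1, so that the deletion is limited to cells that express or have expressed Pax7. The 5 WT_FI and 3 KO_FI libraries are freshly isolated, quiescent cells sorted by FACS. The 4 WT_Cul and 2 KO_Cul libraries are proliferating cells grown with 12.5 ng/ml bFGF and 20% fetal bovine serum. The 2 WT_Diff and 2 KO_Diff libraries had spent 24 hours in medium with 2% horse serum. The labels give no animal ages and do not state whether the WT animals carry Cre. Nor do they tie a library to its own animal or culture, so the p-values cover the spread between these samples alone, and that spread may be technical.

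The libraries lie in 4 tables that the authors scaled separately: WT_FI with WT_Cul (2 against 2, the table of WT states), KO_FI with WT_FI (3 against 3), KO_Cul with WT_Cul (2 against 2) and KO_Diff with WT_Diff (2 against 2). Libraries are named by group and by their index in the table, counted from 0. Depth ran from 24254119 to 31643216 estimated fragments per library in the table of WT states, from 28010691 to 65324684 in the FI table, from 75674366 to 82590642 in the Cul table and from 71858446 to 82825550 in the Diff table. Sirt1 lay between 37.6 and 63.4 CPM in KO_FI and between 47.4 and 81.4 CPM in WT_FI; the ranges were 33.8 to 46.9 against 62.2 to 66.8 CPM in Cul and 28.8 to 41.4 against 28.2 to 52.1 CPM in Diff, and a total per gene cannot check a deletion of 1 exon. CPM are fragments relative to the TMM-scaled library size and compare 1 gene across libraries of a table. FPKM, which divide by gene length as well, compare genes with each other. Pax7, the defining satellite cell marker, was present in every library, from 19.7 CPM in WT_Cul index 0 of the table of WT states to 1059 CPM in WT_FI index 0 of the FI table.

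Wnt proteins are secreted lipid-modified ligands. In the canonical branch a Wnt bridges a Frizzled receptor and Lrp5 or Lrp6, which stops the destruction of beta-catenin and lets it act with TCF/LEF factors on targets such as Axin2. Sfrp proteins, Frzb and Wif1 bind Wnts outside the cell, most Dkk proteins block the co-receptors, and R-spondins amplify the signal by keeping Frizzleds on the membrane. In skeletal muscle, Wnt7a with Fzd7 is known for promoting the expansion of satellite cells, and canonical Wnt signals accompany the turn from proliferation to differentiation.

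The promoter sequences below belong to the 4 members with the smallest p in the comparison of WT_Cul with WT_FI that have an entry in the RefSeq promoter table (build GRCm38.p6); all 4 fell together in culture. Each is the 250 bases before the annotated start, 5′ to 3′ on the gene's strand. The windows are chr19:42202253-42202502 on the minus strand for Sfrp5, chr10:121033754-121034003 on the plus strand for Wif1, chr1:74771642-74771891 on the plus strand for Wnt6 and chr1:59481897-59482146 on the plus strand for Fzd7. None of the 4 holds CTTTGAT, the core of TCF/LEF sites, on either strand, so no letters are in capitals.
Sfrp5: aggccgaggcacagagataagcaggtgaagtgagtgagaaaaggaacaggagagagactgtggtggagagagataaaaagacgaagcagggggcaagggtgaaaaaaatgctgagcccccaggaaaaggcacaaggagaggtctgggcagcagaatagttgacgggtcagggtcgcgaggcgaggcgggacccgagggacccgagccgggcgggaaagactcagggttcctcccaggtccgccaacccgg
Wif1: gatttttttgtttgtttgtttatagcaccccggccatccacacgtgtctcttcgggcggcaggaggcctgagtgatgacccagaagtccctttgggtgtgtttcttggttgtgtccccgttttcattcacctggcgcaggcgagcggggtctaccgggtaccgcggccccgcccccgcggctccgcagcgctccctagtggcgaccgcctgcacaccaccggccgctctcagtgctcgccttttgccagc
Wnt6: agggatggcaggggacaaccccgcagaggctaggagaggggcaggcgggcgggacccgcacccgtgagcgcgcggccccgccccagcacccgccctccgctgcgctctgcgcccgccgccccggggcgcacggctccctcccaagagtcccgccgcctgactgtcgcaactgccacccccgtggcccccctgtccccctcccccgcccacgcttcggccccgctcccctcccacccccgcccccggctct
Fzd7: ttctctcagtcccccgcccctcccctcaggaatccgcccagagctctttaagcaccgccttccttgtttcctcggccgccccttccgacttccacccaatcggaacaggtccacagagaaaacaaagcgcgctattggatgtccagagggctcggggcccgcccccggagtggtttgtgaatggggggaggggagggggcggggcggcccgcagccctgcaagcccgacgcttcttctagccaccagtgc

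The 4 sequences differ in base composition, with 59.6% G and C in Sfrp5, 62.8% in Wif1, 65.2% in Fzd7 and 79.6% in Wnt6, and with 13, 21, 17 and 28 CpG dinucleotides in the same order. Of the 47 members, 31 have a window in the RefSeq table. In windows of 300 bases, which add 50 bases after the start, the motif lay in 2 of the 38 member windows (5.26%; Wnt5b and Wnt11) and in 3.73% of all 32851 windows. The median member window had 67% G and C and 24.5 CpG dinucleotides, against 52.7% and 7 over all windows. A match is a description of the letters, not of binding.

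Across the 18 libraries, 13 members reached 1 CPM in every library: Fzd1, Fzd2, Fzd3, Fzd4, Fzd5, Fzd7, Fzd8, Fzd9, Lrp5, Lrp6, Axin2, Tcf7 and, alone among the ligands, Wnt9a. These include 8 of the 10 Frizzleds and both co-receptors. At the other end, 9 members stayed under 1 CPM in every library: Wnt1, Wnt3, Wnt3a, Wnt7a, Wnt8a, Wnt8b, Wnt9b, Dkk1 and Dkk4. Wnt3a, a standard canonical ligand, had 2 fragments over all libraries, Dkk4 had 3, and Wnt7a had 17.

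Levels per length in WT_FI, in the table of WT states, were led by antagonists and receptors. Sfrp5 was highest of all members with 79.0 ± 11.7 FPKM (SD, n = 2, as for all means of this table). Fzd7 followed with 48.2 ± 14 FPKM, then Fzd1 (34 ± 1.55), Fzd4 (33.6 ± 12.4) and Wif1 (33.3 ± 1.25). These 3 do not differ beyond their spread. Lrp5 and Lrp6 stood at 25.5 ± 0.181 and 24.5 ± 9.02 FPKM, and Dkk3 at 24.2 ± 2.09 FPKM. Among ligands the highest were Wnt5b, best known for signalling without beta-catenin, at 4.19 ± 0.854 FPKM, Wnt9a at 4.1 ± 1.31 and Wnt6 at 3.62 ± 0.623, which overlap in their spread. The R-spondins were low, led by Rspo1 at 1.51 ± 0.0657 FPKM, and Tcf7 led the nuclear genes at 3.77 ± 0.4 FPKM. In the WT_FI libraries of the FI table (n = 3) Sfrp5 was again highest, at 56.2 ± 5.53 FPKM, but the order below it differed. Wnt4 led the ligands there at 13.7 ± 10 FPKM, while Wnt5b was at 1.47 ± 0.561 FPKM. Wif1 and Dkk3 stood at 3.77 ± 2.82 and 4.7 ± 1.21 FPKM.

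In WT_Cul of the table of WT states the order was not that of WT_FI. Lrp6 (14.2 ± 10 FPKM), Lrp5 (13 ± 7.09), Fzd1 (12.2 ± 0.534) and Tcf7 (11.6 ± 0.0967) were the highest members. Lrp6 and Lrp5 do not differ from each other or from the other 2 beyond their spread, while both Fzd1 libraries (11.9 and 12.6 FPKM) lay above both Tcf7 libraries (11.5 and 11.7 FPKM). Wnt9a led the ligands with 6.37 ± 5.21 FPKM, Sfrp1 the antagonists with 5.29 ± 4.25 FPKM and Rspo1 the R-spondins with 0.371 ± 0.114 FPKM. In WT_Diff, in a table of its own, Tcf7 (21.8 ± 8.13 FPKM), Lrp5 (10.9 ± 0.97), Fzd2 (10.1 ± 6.42), Wnt9a (8.55 ± 6.98), Sfrp2 (2.66 ± 0.219) and Rspo1 (1.21 ± 1.12) led their roles.

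**Figure D1:**
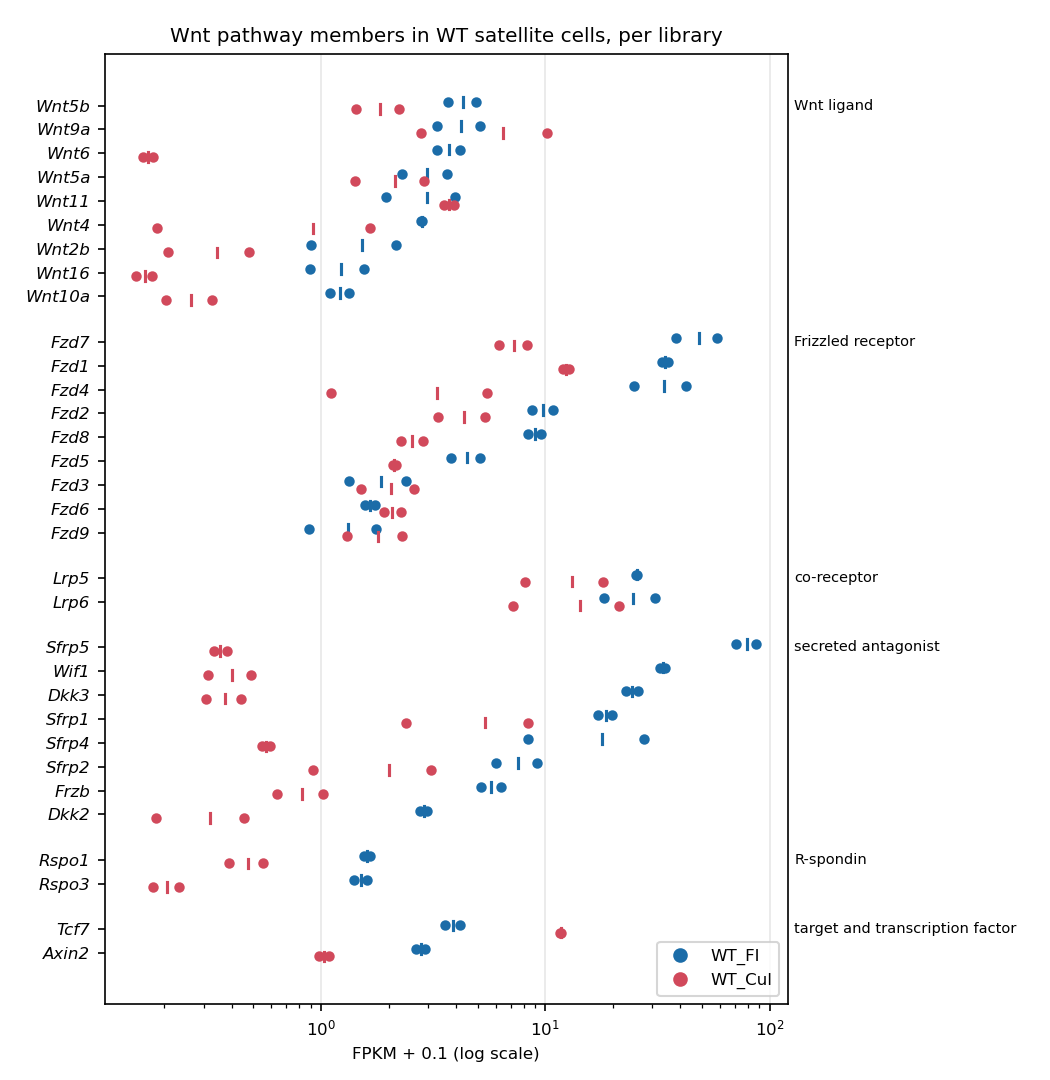
FPKM of each library (points, 0.1 added, log scale) and group mean (bars) for members with a mean of at least 1 FPKM in WT_FI or WT_Cul of the table of WT states, by role. The antagonists lie to the right in WT_FI and to the left in WT_Cul, where Sfrp5 averages 0.256 FPKM and Dkk2 0.22 FPKM, while Tcf7 lies the other way.

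WT_Cul was compared with WT_FI to ask which members differ between proliferating and quiescent satellite cells. In culture, 14 of the 39 members tested fell and 1 rose. The fall was steepest among secreted antagonists, of which 6 of 8 tested fell, led by Sfrp5, Wif1 and Dkk3. It also took in the ligands Wnt6, Wnt16 and Wnt10a, the receptors Fzd4, Fzd7, Fzd8 and Fzd1, and Rspo3. Tcf7, the transcription factor TCF1, rose. Calls are from edgeR's quasi-likelihood test, with p adjusted by Benjamini-Hochberg over the 14680 genes that entered it, at a threshold of 0.05. Of all genes, 28.6% passed, 16% lower and 12.6% higher. The median log2 fold change of the members was −1.48, against 0.06 for all genes tested. All the libraries of a group lay apart from those of the other in 70.9% of all genes tested, so with 2 libraries a group a lack of overlap is common here.

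Sfrp5, a decoy receptor for Wnts, was at 161 and 129 CPM in WT_FI, against 0.52 and 0.443 CPM in WT_Cul (indices 0 and 1). Its log2 fold change was −8.22 ± 0.46 (SE; adjusted p = 0.00962, edgeR). Wif1, which binds Wnts through its WIF domain, was at 71.7 and 75 CPM in WT_FI, against 0.48 and 0.886 CPM in WT_Cul, a change of −6.73 ± 0.52. In both genes the libraries of a group lay close together and far from the other group. Dkk3, a member of the Dickkopf family that does not act as a plain blocker of Lrp6, was at 87.8 and 77 CPM in WT_FI, against 0.72 and 1.2 CPM in WT_Cul (−6.41 ± 0.49). Sfrp4 was at 46.1 and 13.9 CPM against 0.76 and 0.854 CPM (−5.21 ± 0.78, adjusted p = 0.0149). The 2 WT_FI libraries of Sfrp4 differed far more than those of Sfrp5, yet neither came near the WT_Cul values. Dkk2 was at 10.2 and 10.8 CPM against 0.32 and 1.39 CPM (−3.59 ± 0.81), and Frzb, also called Sfrp3, at 18.3 and 14.8 CPM against 1.6 and 2.78 CPM (−2.91 ± 0.51). The WT_Cul values of Dkk2 rest on 8 and 44 fragments.

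The other antagonists tested, Sfrp1 and Sfrp2, did not pass in the main edgeR fit, nor with upper quartile factors, no filter or limma. Both passed with DESeq2 (adjusted p = 0.0218 and 0.0238) and with the table index as a block. Without WT_Cul index 0 their estimates were −1.15 and −3.18, and without WT_Cul index 1 they were −3.01 and −1.31. Sfrp1 was at 77.5 and 88.8 CPM in WT_FI, against 10.4 and 38.6 CPM in WT_Cul (−1.76 ± 0.67, adjusted p = 0.103). Sfrp2 was at 17.7 and 11.4 CPM against 5.88 and 1.65 CPM (−1.95 ± 0.73, adjusted p = 0.101). Both groups lay apart in each gene, and all 8 antagonists tested had estimates below 0, with a median log2 change of −4.40.

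Among the ligands, 3 of 13 tested fell. Wnt6, a ligand known from somite and kidney development, was at 8.21 and 6.37 CPM in WT_FI, against 0.16 and 0.127 CPM in WT_Cul (−5.63 ± 0.64, adjusted p = 0.0106). Wnt16 was at 2.31 and 1.25 CPM against 0.08 and 0.127 CPM (−4.03 ± 0.76), and Wnt10a at 2.35 and 1.89 CPM against 0.2 and 0.443 CPM (−2.69 ± 0.68, adjusted p = 0.0402). All 3 are low genes whose WT_Cul values rest on few fragments. The remaining 10 ligands tested did not pass, and 5 of the 13 had estimates above 0. Wnt9a, the ligand present throughout, was at 17 and 10.6 CPM in WT_FI, against 34.4 and 9.33 CPM in WT_Cul, so that its groups overlapped. Wnt4 was at 10.6 CPM in both WT_FI libraries and at 6.2 and 0.348 CPM in WT_Cul, where the libraries stood far apart.

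Of the 10 Frizzleds, 4 fell and none passed as higher. Fzd7, the Wnt7a receptor of satellite cells, was at 191 and 287 CPM in WT_FI, against 31 and 41.9 CPM in WT_Cul (−2.71 ± 0.42, adjusted p = 0.0153). Fzd4, a receptor that also binds the non-Wnt ligand norrin, was at 93.8 and 159 CPM against 3.84 and 20.9 CPM (−3.35 ± 0.88, adjusted p = 0.0448). Fzd4 was the more variable of the 2 in culture. Fzd8 was at 32.2 and 28.1 CPM against 9.44 and 7.63 CPM (−1.82 ± 0.39), and Fzd1 at 159 and 148 CPM against 54.4 and 58.9 CPM (−1.44 ± 0.32). Even after the fall Fzd1 was the highest Frizzled per length in WT_Cul. Fzd3, Fzd6 and Fzd9 had estimates above 0, between 0.19 and 0.51, and did not pass. The co-receptors Lrp5 and Lrp6 had estimates of −0.93 ± 0.48 and −0.74 ± 0.63 and did not pass (adjusted p = 0.199 and 0.412).

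Rspo3, an R-spondin, was at 3.11 and 3.56 CPM in WT_FI, against 0.32 and 0.19 CPM in WT_Cul (−3.70 ± 0.65, adjusted p = 0.0187). Its WT_Cul values rest on 8 and 6 fragments. Rspo1 and Rspo2 lay lower in both WT_Cul libraries than in both WT_FI libraries and did not pass (adjusted p = 0.0602 and 0.143). Tcf7 was at 8.89 and 7.58 CPM in WT_FI, against 25.9 and 26 CPM in WT_Cul (1.65 ± 0.38, adjusted p = 0.0316). Axin2, a negative regulator induced by canonical signals, was at 12.4 and 11.1 CPM against 3.92 and 4.46 CPM. Its groups lay apart, and its change of −1.48 ± 0.43 missed the threshold (adjusted p = 0.0555). It passed in 6 of 9 alternatives, from an adjusted p of 0.0126 with DESeq2 to 0.0469 with upper quartile factors. It did not pass without WT_FI index 0 (adjusted p = 0.39), without WT_FI index 1 (0.358) or with no filter (0.0603). Lef1, a partner of beta-catenin like TCF1, was at 2.67 and 0.285 CPM against 0.8 and 3.89 CPM, with no separation (0.68 ± 1.24, adjusted p = 0.706); the estimate was below 0 when WT_FI index 1 (−0.17) or WT_Cul index 1 (−0.87) was left out.

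The number of calls depended on single libraries. It was 9 members without WT_FI index 0 and 10 without WT_FI index 1, 20 without WT_Cul index 0 and 25 without WT_Cul index 1. Of the 15 members called, Sfrp5, Dkk3, Wif1, Wnt6, Sfrp4, Fzd7, Dkk2 and Fzd4 passed under each of the 9 alternatives. Tcf7, Fzd1 and Fzd8 did not pass without WT_FI index 0 (adjusted p = 0.25, 0.262 and 0.208) or without WT_FI index 1 (0.346, 0.231 and 0.174), and Wnt10a passed in 1 of the 4 fits that leave out a library, that without WT_Cul index 1. Frzb and Wnt16 were lost without WT_FI index 0 (adjusted p = 0.0647 and 0.0869) and Rspo3 without WT_FI index 1 (adjusted p = 0.0529).

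Markers of other cell types fell together with these members. The 10 fibroblast and fibro-adipogenic progenitor markers summed to between 19973 and 28956 CPM in WT_FI and to between 991 and 1706 CPM in WT_Cul, with 8 of 10 passing as lower. The 6 pericyte and smooth muscle markers summed to between 16196 and 18685 CPM against 2023 to 2124 CPM, with 4 passing as lower. Endothelial markers summed to between 449.7 and 522 CPM against 86.7 to 166 CPM (5 of 8 passed as lower), and Schwann cell markers to between 1909 and 1996 CPM against 239 to 499.9 CPM (2 of 5 passed as lower). Macrophage and leukocyte markers lay between 189 and 229.6 CPM against 9.16 to 21.9 CPM (1 of 6 passed as lower), and lymphocyte markers between 3.52 and 43.2 CPM against 0.68 to 0.759 CPM (2 of 3 tested passed as lower). No marker of these lists was at 0 in all libraries of the table of WT states, a count that does not check WT_FI and WT_Cul apart. Pdgfra, a defining fibro-adipogenic marker, went from 162 and 84.9 CPM to 6.44 and 33.5 CPM. Satellite cell markers summed to between 1985 and 2189 CPM in WT_FI and to between 1493 and 1960 CPM in WT_Cul, with 1 of 7 passing as lower. Differentiating muscle markers summed to 2746 CPM in WT_Cul index 0 and to 57.6 CPM in WT_Cul index 1. The part of these cells in the members' differences was not tested, and in bulk samples fewer cells of a type and less RNA per cell cannot be told apart.

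WT cells of the same states lie in the other tables too, as separate libraries, and show the members at these levels without a test across tables. For all 14 members that fell, the highest WT_Cul library of the Cul table lay below the lowest WT_FI library of the FI table. The same held for 48.3% of the 14661 genes compared and for 96.6% of the 2348 that passed as lower in the table of WT states, so the members are not set apart by it. Sfrp5 was at 109, 93.2 and 111 CPM in the 3 WT_FI libraries of the FI table and at 0.0641 and 0.122 CPM in the WT_Cul libraries of the Cul table. Dkk3 was at 20.5, 12.6 and 15.5 CPM and, with 3 and 0 fragments, at 0.0384 and 0 CPM. Tcf7 went the other way, with 7.72, 5.45 and 6.15 CPM against 34.9 and 40.9 CPM. Fibroblast markers summed to between 4946 and 6720 CPM in these WT_FI libraries and to between 76.9 and 195 CPM in these WT_Cul libraries, so they differed here as well.

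**Figure D2:**
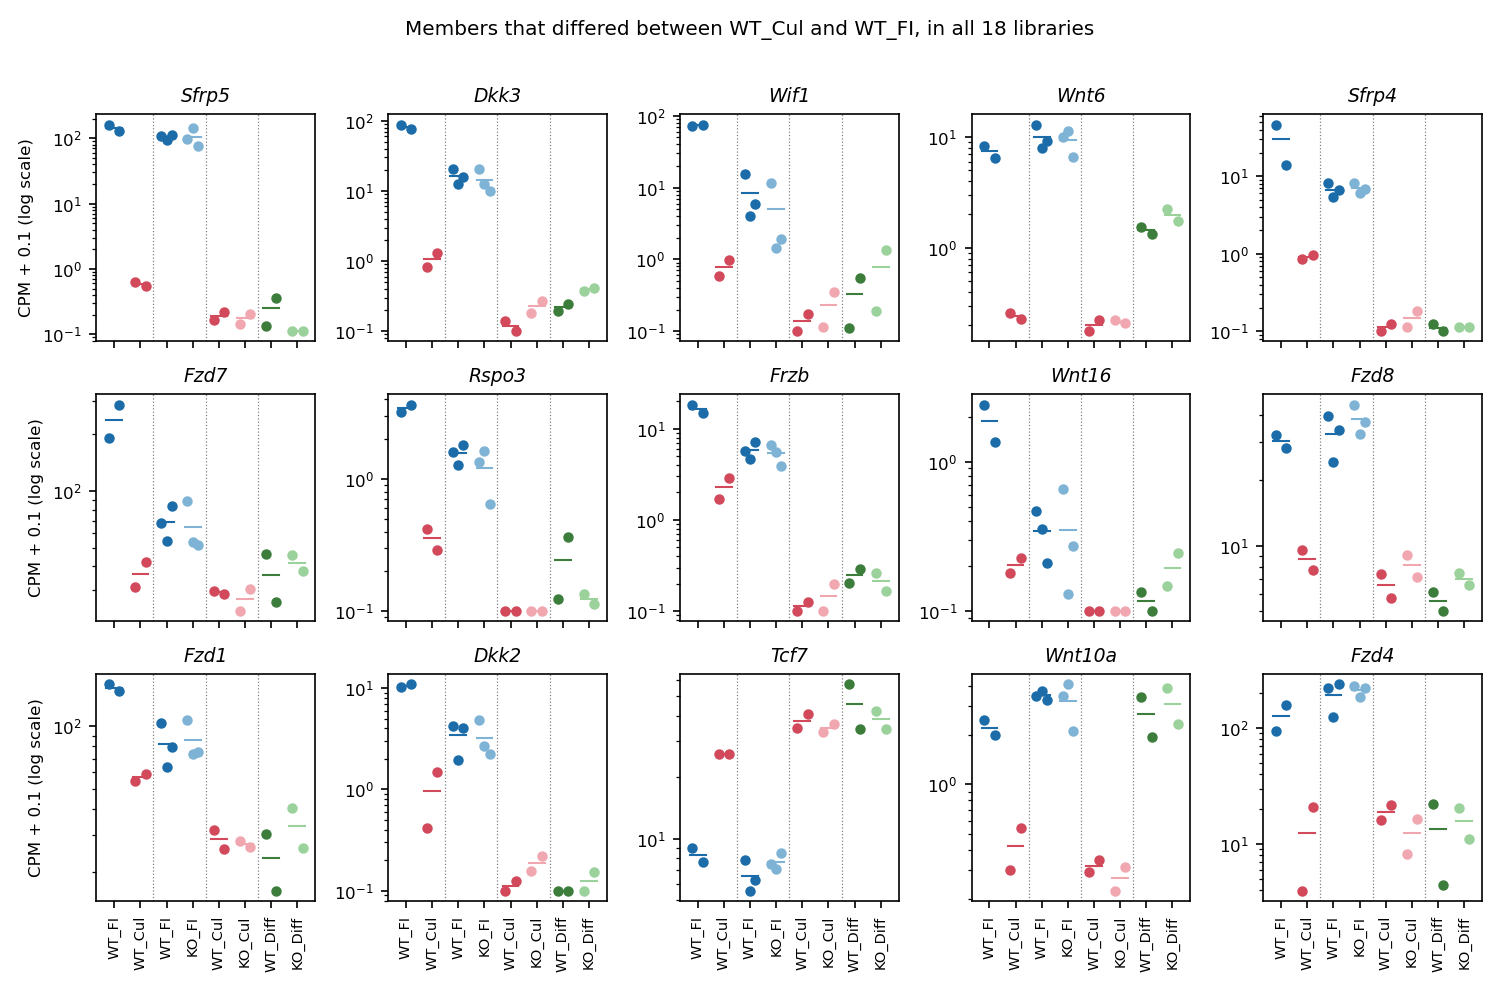
CPM of each library (points, 0.1 added, log scale) and group mean (bars) for the 15 members that passed in WT_Cul against WT_FI, in all 18 libraries; dotted lines part the 4 tables. Sfrp5, Dkk3, Sfrp4, Dkk2 and Frzb are at 0.315 CPM or less in every library of the Cul and Diff tables, WT and KO, as is Wif1 apart from both Diff libraries of index 1 (0.455 and 1.26 CPM); Tcf7 is at 33.2 CPM or more there.

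The other genes of the pathway, from a list of 73 of which 71 are in the tables, were tested in 66 cases in the same comparison: 13 passed as lower, 1 as higher, and their median log2 change was −0.36. Of all genes tested, 16% passed as lower and 12.6% as higher, so the lower calls on this list are near the share of all genes. With the smallest p were Nkd1, a feedback inhibitor acting on Dishevelled (154.9 ± 21 to 2.66 ± 0.935 CPM, log2 −5.86), Dact1, another Dishevelled partner (−3.48), the co-repressor Tle2 (−3.13), the glypican Gpc3 (−5.72), Prickle1 of the planar polarity branch (−3.81) and Dact3 (−2.70). The gene that rose was Ccnd1, cyclin D1, from 185 ± 3.36 to 887 ± 334 CPM (2.26 ± 0.45, adjusted p = 0.0232). Ccnd1 is named because it was the only one higher.

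KO_FI was compared with WT_FI to ask whether members differ without SIRT1 activity in quiescent cells. No member of the 36 tested passed, with adjusted p of 1.00 throughout, and 2 had an unadjusted p under 0.05. Over all 15146 genes, 0% passed by edgeR and 621 had an unadjusted p under 0.05, while DESeq2 called 117 genes and 0 members. The median log2 change was −0.05 over the members and −0.03 over all genes, with 16 members above 0 and 20 below. In 34 of the 36 members the spread among the 3 WT_FI libraries was larger than the KO difference. That spread includes what same-index WT and KO libraries share, so it is not the error of a paired difference. Within indices, KO lay above WT in all 3 for 6 members and below in all 3 for 5, though pairing by index is clear only for index 0. The share of all genes was computed for neither the spread nor the index counts, so nothing is read from them.

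Lrp5 had the smallest p. It was at 157, 111 and 137 CPM in WT_FI, against 185, 182 and 176 CPM in KO_FI (indices 0, 1 and 2), so every KO library lay above every WT library. The log2 difference was 0.42 ± 0.14 (unadjusted p = 0.0256, adjusted p = 1.00, edgeR). Fzd10, a low receptor, was at 1.32, 1.35 and 0.687 CPM in WT_FI, against 3.07, 1.71 and 2.08 CPM in KO_FI (1.03 ± 0.39). These 2 were the members whose groups did not overlap, against 9.22% of all genes tested, and they are 2 of 36. With the index as a block their adjusted p were 0.505 and 0.558, and the smallest p was that of Wif1 (−1.16 ± 0.30, adjusted p = 0.473), which was at 15.4, 3.94 and 5.72 CPM in WT_FI, against 11.4, 1.36 and 1.83 CPM in KO_FI.

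Wnt4, a ligand of the non-canonical branch in many tissues, differed widely between libraries. It was at 41.2, 99.5 and 22.1 CPM in WT_FI, against 27.4, 13 and 27.9 CPM in KO_FI. Its difference of −1.25 ± 0.60 was −0.48 without WT_FI index 1, the library with the highest value. That library also had the highest sum of differentiating muscle markers, 329.8 CPM against 66.6 and 91.7 CPM in the other WT_FI libraries, whose part in the Wnt4 difference was not tested. Fzd3, a receptor known from axon guidance and planar polarity, was at 24, 18.2 and 19.2 CPM against 17, 17.4 and 18.3 CPM (−0.22 ± 0.14), and Wnt5b was at 2.41, 3.04 and 4.99 CPM against 3.59, 1.74 and 1.46 CPM (−0.61 ± 0.46). In both, the groups overlapped. Tcf7 was at 7.72, 5.45 and 6.15 CPM against 7.4, 7.01 and 8.42 CPM (0.24 ± 0.20). Axin2 was at 14.6, 8.94 and 14.4 CPM against 15.6, 14.9 and 12.6 CPM (0.18 ± 0.23), and Lef1 at 1.28, 0.545 and 1.09 CPM against 1.24, 0.384 and 0.485 CPM (−0.45 ± 0.58). None of these 3 genes separated the genotypes. The antagonist Sfrp5, at 109, 93.2 and 111 CPM in WT_FI, was at 97.4, 144 and 74.9 CPM in KO_FI. Fibroblast markers summed to between 4946 and 6720 CPM in WT_FI and to between 4709 and 6886 CPM in KO_FI. Without both libraries of index 0, the deepest of the table, 0 members passed.

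In proliferating cells, KO_Cul against WT_Cul, 0 of 27 members tested passed (adjusted p = 1.00), and 0 had an unadjusted p under 0.05. Over all 13963 genes 0% passed by edgeR, 112 had an unadjusted p under 0.05, and DESeq2 called 3 genes and 0 members. The median log2 change of the members was 0.01, with 14 above 0 and 13 below. KO lay above WT in both indices for 8 members and below in both for 11. The share of all genes was not computed for these index counts, so nothing is read from them. The groups did not overlap for 3 of 27 members, against 23% of all genes tested. Fibroblast markers summed to 195 and 76.9 CPM in WT_Cul and to 248 and 121 CPM in KO_Cul, with 8 of 8 tested above 0 and 0 passing. Pericyte and smooth muscle markers summed to 113 and 57.8 CPM in WT_Cul and to 136 and 133 CPM in KO_Cul, so these sums did not overlap, with 4 of 4 tested above 0 and 0 passing. Nearly all of each sum was Cspg4, Acta2 and Tagln. The groups overlapped for Cspg4 and for Acta2 (50.2 and 17.3 against 48.4 and 46.1 CPM) and lay apart for Tagln. Abcc9, which was not tested, lay lower in KO at 0.158 CPM or less in every library. The part of either list in the members' values was not tested.

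Fzd9 was at 5.28 and 5.45 CPM in WT_Cul, against 7.34 and 7.5 CPM in KO_Cul (0.47 ± 0.29). Fzd3 was at 17.3 and 18.3 CPM against 12.2 and 14.9 CPM (−0.39 ± 0.25), and Wnt9a at 4.95 and 4.44 CPM against 6.32 and 5.32 CPM (0.31 ± 0.32). These 3 are the members whose groups lay apart. Fzd4 was at 15.9 and 21.6 CPM against 8.09 and 16.4 CPM (−0.61 ± 0.42), Fzd10 at 1.77 and 1.03 CPM against 2.76 and 1.75 CPM (0.68 ± 0.51), and Lrp6 at 96.5 and 133 CPM against 63.6 and 111 CPM (−0.40 ± 0.34). For each of them the same-index KO library lay on the same side of its WT library in both indices, and the groups overlapped. Wnt7b, the ligand with the highest mean per length in WT_Cul of this table (1.74 ± 1.63 FPKM), followed the index: 9.79 and 1.95 CPM in WT_Cul, 9.77 and 0.741 CPM in KO_Cul. Axin2 was at 1.94 and 3.44 CPM against 1.77 and 3.06 CPM (−0.16 ± 0.52), Lef1 at 4.73 and 7.39 CPM against 4.29 and 5.7 CPM (−0.28 ± 0.38), and Tcf7 at 34.9 and 40.9 CPM against 33.2 and 36.6 CPM (−0.12 ± 0.21). For each of these 3, KO lay below WT within both indices. Each estimate turned above 0 without WT_Cul index 1, in fits that set both KO libraries against WT_Cul index 0 alone.

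In differentiation medium, KO_Diff against WT_Diff, 0 of 32 members passed (adjusted p = 1.00) and 0 had an unadjusted p under 0.05. Over all 14482 genes 0% passed by edgeR and by DESeq2, and 27 and 73 genes had an unadjusted p under 0.05. The members' median log2 change was 0.32, against −0.01 over all genes, with 23 above 0 and 9 below, where 49.2% of all genes were above 0. Leaving out 1 library moved the members' median between 0.013 and 0.60. All 10 Frizzleds had estimates above 0, from 0.15 to 1.70 with a median of 0.43, and none passed. Within index 0, KO lay below WT for Fzd3, Fzd4 and Fzd7 (log2 −0.25, −0.13 and −0.01) and above WT for the other Frizzleds. The groups did not overlap for 6 of 32 members, all higher in KO, against 13.2% of all genes tested.

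Wnt5a, the prototype of non-canonical ligands, had the smallest p: 0.398 and 0.235 CPM in WT_Diff and 1.27 and 1.04 CPM in KO_Diff, a difference of 1.86 ± 0.74 (unadjusted p = 0.0555, adjusted p = 1.00, edgeR). Both KO libraries lay above both WT libraries, at a low level. Fzd5 was at 9.42 and 17.6 CPM against 12.6 and 42.2 CPM (1.02 ± 0.73), and Fzd10 at 0.592 and 6.53 CPM against 0.965 and 22.1 CPM (1.70 ± 1.71). Without KO_Diff index 1 the estimates were −0.061 and −1.83, in fits that set KO_Diff index 0 alone against both WT libraries. Compared within an index, KO lay above WT in both indices for both genes. With the index as a block the estimates were 0.84 ± 0.33 and 1.27 ± 0.41 (adjusted p = 0.365 and 0.119, edgeR). Rspo1 was at 0.706 and 3.48 CPM against 0.628 and 1.36 CPM (−1.07 ± 1.00), with KO below WT in both indices. Its estimate turned to 0.49 without WT_Diff index 1. Fzd1 was at 30.1 and 16.1 CPM against 40.3 and 25.8 CPM (0.52 ± 0.51), and Wnt6 at 1.45 and 1.22 CPM against 2.12 and 1.64 CPM (0.50 ± 0.61).

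In 21 of 32 members the gap between the WT_Diff libraries was larger than the KO difference. Compared within an index, KO lay above WT in both for 17 members and below in both for 2. The share of all genes was computed for neither the gap nor the index counts, so nothing is read from them. Wnt9a was at 11.6 and 44.6 CPM in WT_Diff, against 18.7 and 69.3 CPM in KO_Diff, so index 1 was the higher in both genotypes. Axin2 went the other way, with 12.1 and 2.36 CPM in WT_Diff and 9.04 and 3.36 CPM in KO_Diff (−0.22 ± 0.96). Lef1 was at 1.8 and 0.249 CPM against 1.53 and 0.21 CPM (−0.23 ± 1.36), and Tcf7 at 57.1 and 34.4 CPM against 42.4 and 34.5 CPM (−0.25 ± 0.43). All 3 were lower in index 1 in both genotypes. The 6 differentiating muscle markers summed to 119 CPM in WT_Diff index 0 and to 9390 CPM in index 1, and to 287 and 20437 CPM in KO_Diff. Pericyte and smooth muscle markers, which include Acta2 and Tagln, summed to 168 and 1604 CPM in WT_Diff and to 303 and 3259 CPM in KO_Diff, and fibroblast markers to 427 and 288 CPM against 709 and 591 CPM. Most of each fibroblast sum was the collagen gene Col3a1, at 378 and 234 CPM against 534 and 310 CPM. Pdgfra was at 2.9 and 1.75 CPM against 5.45 and 0.997 CPM, so in index 1 it was lower in KO. Of the 10 fibroblast markers 8 had estimates above 0 and 2 below, and 0 passed. The part of these lists in the members' differences was not tested.

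**Figure D3:**
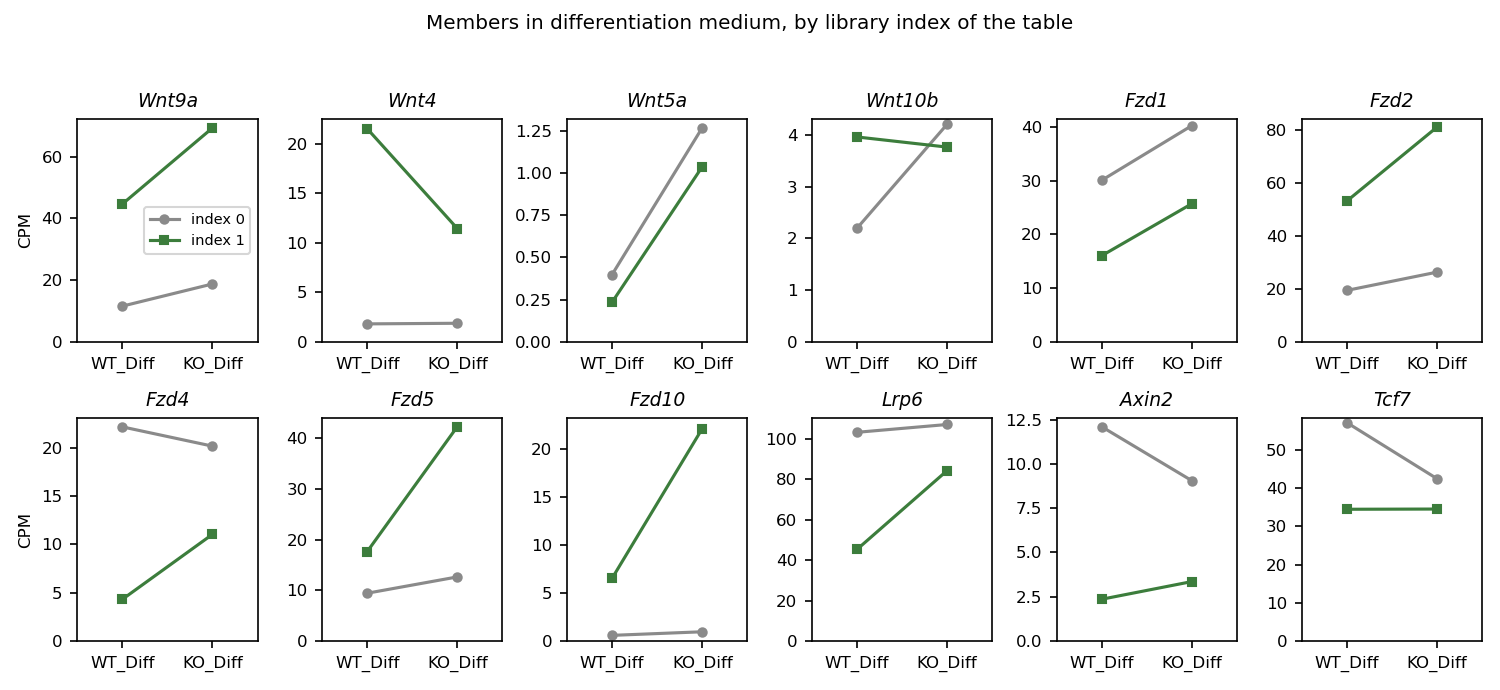
CPM of 12 members, chosen after their values were seen, in WT_Diff and KO_Diff; each line joins the 2 libraries with the same index in the Diff table, and axes start at 0. For Wnt9a the lines run from 11.6 to 18.7 CPM and from 44.6 to 69.3 CPM, so the gap between lines is larger than the slope of either.

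**Figure D4:**
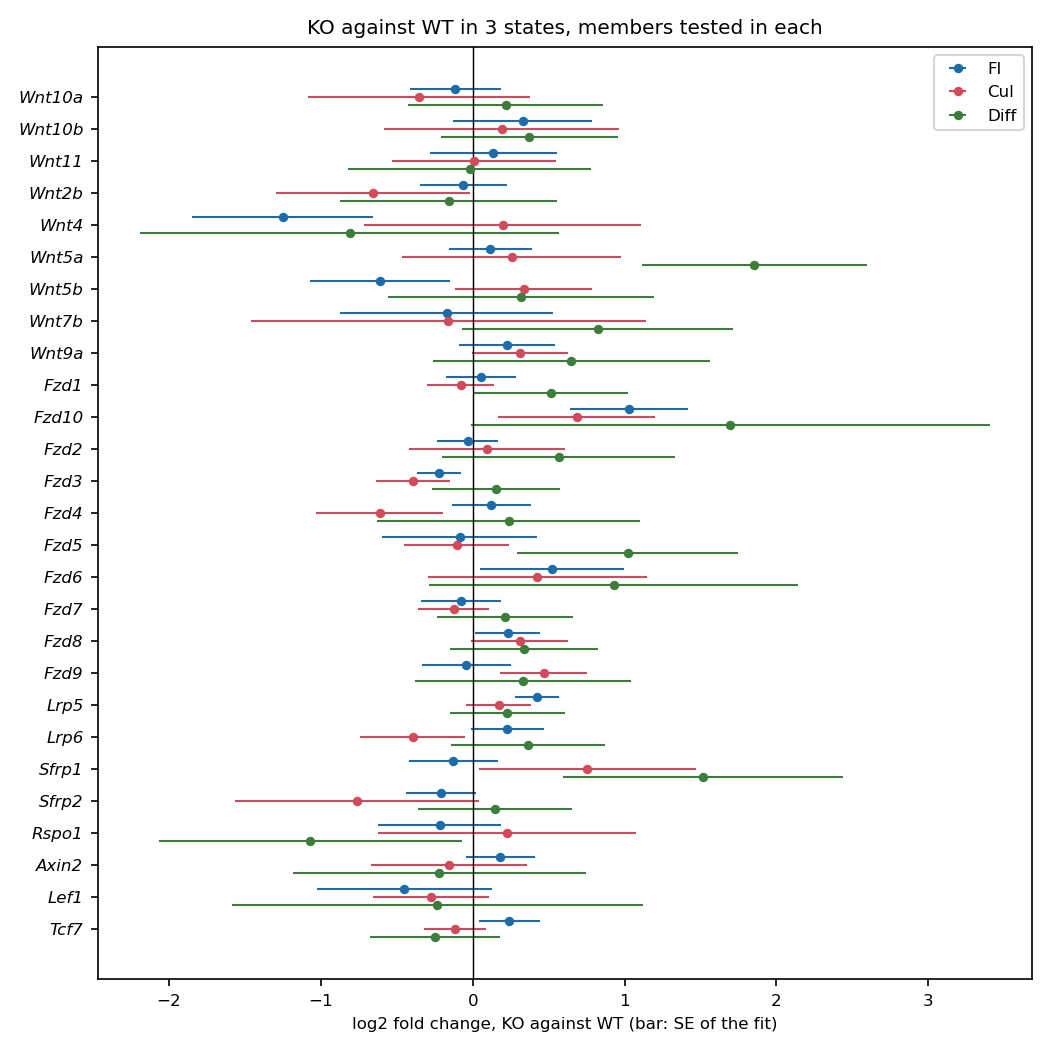
Log2 fold change of KO against WT (points) with the SE of the fit (bars) for the 27 members tested in all 3 KO comparisons, by state. The bars of Diff are longer than those of FI for all 27, and no member passed in any state.

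Whether KO effects differed from state to state was tested over the 14 libraries of the 3 KO tables. Of the 40 members tested, 0 passed for Cul against FI, Diff against FI or Diff against Cul (adjusted p = 1.00, edgeR), as did 0% of the 16698 genes tested in each contrast. With an unadjusted p under 0.05 were 1, 2 and 1 members, in the same order: Dkk3, then Sfrp5 and Wnt5a, then Sfrp5. Dkk3 and Sfrp5 were too low for the test within Cul, and Sfrp5 within Diff, and entered here through the FI libraries. Dkk3 had 3 and 0 fragments in WT_Cul and 6 and 14 in KO_Cul, and Sfrp5 had 3 and 18 in WT_Diff and 1 in each KO_Diff library, so nothing is read from these contrasts. Beyond the members, 0 of 68, 65 and 66 other pathway genes passed in the FI, Cul and Diff comparisons. In FI the smallest p among these belonged to Wisp2, a secreted Wnt-induced protein, with 9.05 ± 1.05 CPM in WT_FI and 20.8 ± 2.14 CPM in KO_FI (n = 3 each; log2 1.20 ± 0.15, adjusted p = 0.237). It was chosen after its values were seen.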

How the data were processed

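RNA-seq gene tables from 18 libraries were analysed. Per the file headers, the deposited tables give raw fragments, which are estimated counts (with a tolerance of 0.01, 1.42% to 8.18% of the nonzero values per library had a fractional part) and were rounded here. They also give FPKM, which the authors scaled table by table, per the file headers, and which serve here for levels between genes. Cuffdiff, TopHat, Bowtie, SICER and the build mm9 are named in the submitters' processing notes, with no versions. Genes whose status was not OK in every library of a table were left out (12 to 27 a table, no member among them). The tables name a group and an index, not a GEO sample, and the state marked only by the letter A, in the table of WT states and in the Cul table, was taken as proliferating by elimination, as the state left after quiescent and Diff. Unused columns of per-sample values: 0. No 2 libraries of a group agreed within sampling noise (lowest chi-square per degree of freedom 26.8).

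Each comparison was fitted within its table over all genes with edgeR 4.0.16 (R 4.3.3; robust quasi-likelihood F test after filterByExpr, with TMM factors), adjusted by Benjamini-Hochberg over all genes tested, with a threshold of 0.05. A contrast between KO effects used the 3 KO tables joined. Alternatives were DESeq2 1.42.0, upper quartile factors, no filter, limma 3.58.1 on log2(FPKM + 1), the table index as a block, and leaving out each library. Named members are those that passed, the 6 with the smallest p and at least 1 CPM per KO comparison, the highest of each role, and Axin2, Lef1 and Tcf7. In the FI table same-index libraries deviated together (correlations of 0.87, 0.68 and 0.58 over 15146 genes). WT_FI index 1 also correlated with KO_FI index 2 (0.54), and WT_FI index 2 with KO_FI index 1 (0.35). Pairing by index is therefore clear for index 0 and not settled for indices 1 and 2. The fit was tested on simulated data. The members and lists were chosen with earlier results of these data known. Counting is not stated to use strand.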

Additional observations from a re-analysis of the deposited data

How the results depend on the processing

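Between WT_Cul and WT_FI the number of members called was 15, and 21 with DESeq2, 16 with upper quartile factors, 15 with no filter, 17 with limma and 20 with the replicate block (table index), which adds Sfrp1, Sfrp2, Fzd2, Wnt2b and Axin2 (adjusted p = 0.0159, 0.0134, 0.0366, 0.0154 and 0.0371); leaving out 1 library gave 9 to 25, where a lone library is assumed to vary like the other group. Upper quartile factors moved the median of all genes from 0.06 to −0.11. In the KO comparisons and in the contrasts between states 0 members passed under every setting run, the block included; same-index libraries correlated at 0.73 in Cul, 0.79 in Diff and 0.39 in the WT table, with 2 pairs each. The block called 3 genes in Cul, 147 in Diff and 0 in FI, none of them a member, and gave 3, 5 and 5 members an unadjusted p under 0.05 in FI, Cul and Diff. Leaving out 1 library moved Lef1 in WT_Cul against WT_FI between −0.87 and 3.02, Axin2 in KO_FI between −0.022 and 0.30, and in KO_Cul Axin2 between −0.61 and 0.32, Lef1 between −0.58 and 0.078 and Tcf7 between −0.24 and 0.0015. In KO_Diff it moved Fzd5 between −0.061 and 1.64, Rspo1 between −1.79 and 0.49, Fzd10 between −1.83 and 4.27, Axin2 between −1.11 and 1.40, Lef1 between −2.29 and 1.81 and Tcf7 between −0.57 and 0.17, and Axin2 was 0.034 with the block; the cause was not tested. Leaving out both index 0 libraries in FI, chosen after seeing the data, called 0 members. The precision is limited by 2 or 3 libraries a group.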

Other observations

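The WT_FI libraries of the 2 tables that hold them differed for several members, as levels set side by side with no test across separately scaled tables. Wif1 was at 71.7 and 75 CPM in the table of WT states and at 3.94 to 15.4 CPM in the FI table, and Dkk3 at 77 and 87.8 CPM against 12.6 to 20.5 CPM. Wnt4 was at 10.6 CPM in both libraries of the first and at 22.1 to 99.5 CPM in the second. The summed fibroblast markers were 19973 to 28956 CPM in the first table and 4946 to 6720 CPM in the second, and satellite cell markers 1985 to 2189 CPM against 4707 to 6523 CPM.

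In the RefSeq annotation (GRCm38.p6), 4 pairs of members are next to each other: Wnt6 and Wnt10a, Wnt3a and Wnt9a, Wnt9b and Wnt3, and Wnt10b and Wnt1. Wnt6 and Wnt10a both fell in WT_Cul and were both present in WT_Diff, at 1.45 and 1.22 CPM and at 3.29 and 1.85 CPM. In the pair of Wnt3a and Wnt9a, 1 member was present in every library and the other was all but absent.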
